A study of Mus musculus with 9 samples.

Results

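Collagens and laminins build the basement membrane and the fibrils around cells, and integrins are the receptors with which cells hold on to them. The symbols that begin with Col, Lam or Itg and go on with the number or letter of a chain were taken from the count and FPKM tables, which gave 86 of 38197 symbols. They comprise 6 chains of collagen IV, 11 fibrillar collagens, 27 other collagens, 5 laminin alpha, 3 laminin beta and 3 laminin gamma chains, 18 integrin alpha chains and 8 integrin beta chains, and 5 symbols that match the pattern and encode no such chain or an integrin-like protein. The libraries came from wild-type mouse embryonic stem cells of strain 129 grown as a monolayer, given retinoic acid (RA) and SAG, an agonist of Smoothened, over days 0-3 in differentiation conditions (DDC). Neural progenitors were then sorted for the surface protein Prominin-1 at 4.5DDC, 5.5DDC and 6.5DDC, with 3 libraries at each time point and 9 in all. All 9 share the strain, the genotype and the treatment, and the culture surface was coated with fibronectin, itself an integrin ligand. Titles and status labels date the libraries to 4.5, 5.5 and 6.5 days, whereas the source labels read 4, 5 and 6 days, and the former were used. They number the replicates 1, 2 and 3 without saying whether these are separate cultures, so the p-values measure spread between samples. Library totals were between 11066568 and 25506193 counts. Values per library are given below for replicates 1, 2 and 3 in that order.

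Each collagen molecule is a triple helix of 3 chains, and each laminin is a cross of an alpha, a beta and a gamma chain. In a basement membrane a laminin sheet and a collagen IV network are joined by nidogen and perlecan, and in the neural tube this layer lies at the basal side, where progenitors attach their end feet. An integrin is a pair of an alpha and a beta chain whose combination sets the ligand, with laminin, collagen and the RGD peptide of fibronectin or vitronectin as the main classes.

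The libraries of replicate 1 stood apart from the others, at every time point. The 86 members took 0.546%, 0.430% and 0.333% of all counts at 4.5DDC, 0.653%, 0.435% and 0.431% at 5.5DDC and 0.701%, 0.482% and 0.525% at 6.5DDC, and replicate 1 was highest at each time point. The sum of the neuron markers was lowest in the same libraries. Over the 6 genes measured it was, in FPKM, 153, 298 and 238 at 4.5DDC, 151, 395 and 415 at 5.5DDC and 249.8, 575 and 626 at 6.5DDC, with Stmn2, a microtubule regulator of growing axons, as the most abundant. Tubb3, the other gene of that list, was not analysed here. The endoderm markers Gata4 and Gata6 were highest in 6.5DDC replicate 1. Gata4, a transcription factor of heart and endoderm, was at 2.54, 1.15 and 0.376 FPKM at 4.5DDC, 2.21, 0.699 and 0.874 at 5.5DDC and 7.62, 1.47 and 1.53 at 6.5DDC. The related factor Gata6 was at 0.533, 0.269 and 0.0693 FPKM at 4.5DDC, 0.325, 0.0874 and 0.0916 at 5.5DDC and 1.63, 0.333 and 0.285 at 6.5DDC. Over the whole list of 12 endoderm genes the summed FPKM was 63.6, 30.8 and 30.5 at 4.5DDC, 61.9, 40.1 and 45.1 at 5.5DDC and 77.8, 43.8 and 42.7 at 6.5DDC, with Foxa1, which the floor plate also makes, as the most abundant. A call below is an adjusted p under 0.05 in the edgeR quasi-likelihood test over all genes. By that test 0 of 8 tested endoderm genes were called from 4.5DDC to 6.5DDC, against 18.7% of all genes, and 0 had an unadjusted p under 0.05. The median log2 fold change of these 8 genes was 1.28, and a missing call does not show that their levels stayed the same. None of the 12 was at 0 in all libraries. In bulk RNA, fewer cells of a type and less RNA per cell cannot be told apart. Marker genes and members outside the naming rule given with the methods were chosen after their values were seen.

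In scaled counts, replicate 1 was the highest library at each of the 3 time points for 11 of 62 tested members (17.7%), against 11.1% of all 14742 genes tested. These were Col14a1, Col22a1, Col4a1, Col4a2, Col5a1, Col8a1, Col9a1, Itga6, Lama1, Lamb1 and Lamc1. It was the lowest at each time point for another 11 members, against 12.5% of all genes, and these were Col12a1, Col1a2, Col25a1, Col3a1, Col4a6, Col5a2, Col6a3, Itga1, Itga11, Lama4 and Lamc3. Both groups hold chains of fibrillar collagens, of collagen IV and of laminins. Replicate 2 was highest throughout for 0 members (1.59% of all genes) and lowest for Col14a1 alone (2.22% of all genes). Replicate 3 was highest throughout for Col4a5 and Col6a3 (2.41% of all genes) and lowest for Col8a1 (1.52% of all genes). In FPKM the order can differ, as for Lama4 at 6.5DDC (0.769, 0.731 and 0.655) and Col6a3 at 4.5DDC (0.284, 0.454 and 0.234). No test between replicate numbers was used, because libraries of the same number did not all pair across the time points. Both shares for replicate 1 lay above those of all genes, and members are not independent of each other, so the difference is a description.

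Of the 86 members, 4 had 0 counts in every library (Col10a1, Itgad, Itgax and Itgb2l), which allows up to 3 counts, or between 0.118 and 0.271 CPM (counts scaled to the library total) by library, for counting error only. A further 20 had too few counts for the test, and 62 were tested. Levels spanned the range from the most abundant, Itgb1, with a mean of 175 FPKM, through Lamc1 at 114, Itga6 at 86.9, Col18a1 at 78.6 and Col4a1 at 52.1 FPKM, down to 23 untested members that stayed at or under 0.404 FPKM in every library. The untested Itgam is the exception and is described with the leukocyte integrins.

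From 4.5DDC to 6.5DDC, 14 of the 62 tested members were called (22.6%), against 18.7% of all genes tested. The total is thus near that of all genes, and the directions were uneven: 12 members rose (19.4%), against 9.21% of all genes, and 2 fell (3.23%), against 9.53% of all genes. Those that rose were Col6a3, Col25a1, Col6a1, Lama2, Col4a6, Col4a5, Itgb3, Lama4, Itgav, Itga6, Itgb8 and Itgb1, and those that fell were Col18a1 and Col2a1. The 3 libraries of 6.5DDC all lay on the same side of the 3 of 4.5DDC for each of these 14, both in FPKM and in scaled counts. Such a separation was seen upward in 17 members (27.4%), against 17.5% of all genes, and downward in 3 members (4.84%), against 17.6% of all genes. The median log2 fold change of the 62 tested members was 0.67, with 47 above 0, and that of all genes tested was 0.0040. Library totals, DESeq2 size factors and TMM each gave 12 members higher and 2 lower.

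Single libraries changed the total. Without 4.5DDC replicate 2, 5 of 65 members were called (7.61% of all genes), without 4.5DDC replicate 3, 9 of 65 (13.4% of all genes), and without 6.5DDC replicate 2, 6 of 64 (7.56% of all genes). In each of these 3 fits the share of members was within 2 percentage points of that of all genes. In others it was further above, with 21 of 66 members (31.8%) against 20.7% of all genes without 6.5DDC replicate 1, and 13 of 64 (20.3%) against 14.8% without 4.5DDC replicate 1. Without the 3 libraries of replicate 1, an alternative chosen after seeing the data, 34 of 64 members were called (53.1%), against 31.3% of all genes. Of these, 31 were higher at 6.5DDC (48.4%), against 16.5% of all genes, and 13 of the 14 called in the 9 libraries were among them in the same direction, with Itgb1 lost. Col2a1, Col4a5, Col4a6, Itgav and Itgb8 were called under every alternative and without every single library.

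**Figure D1:**
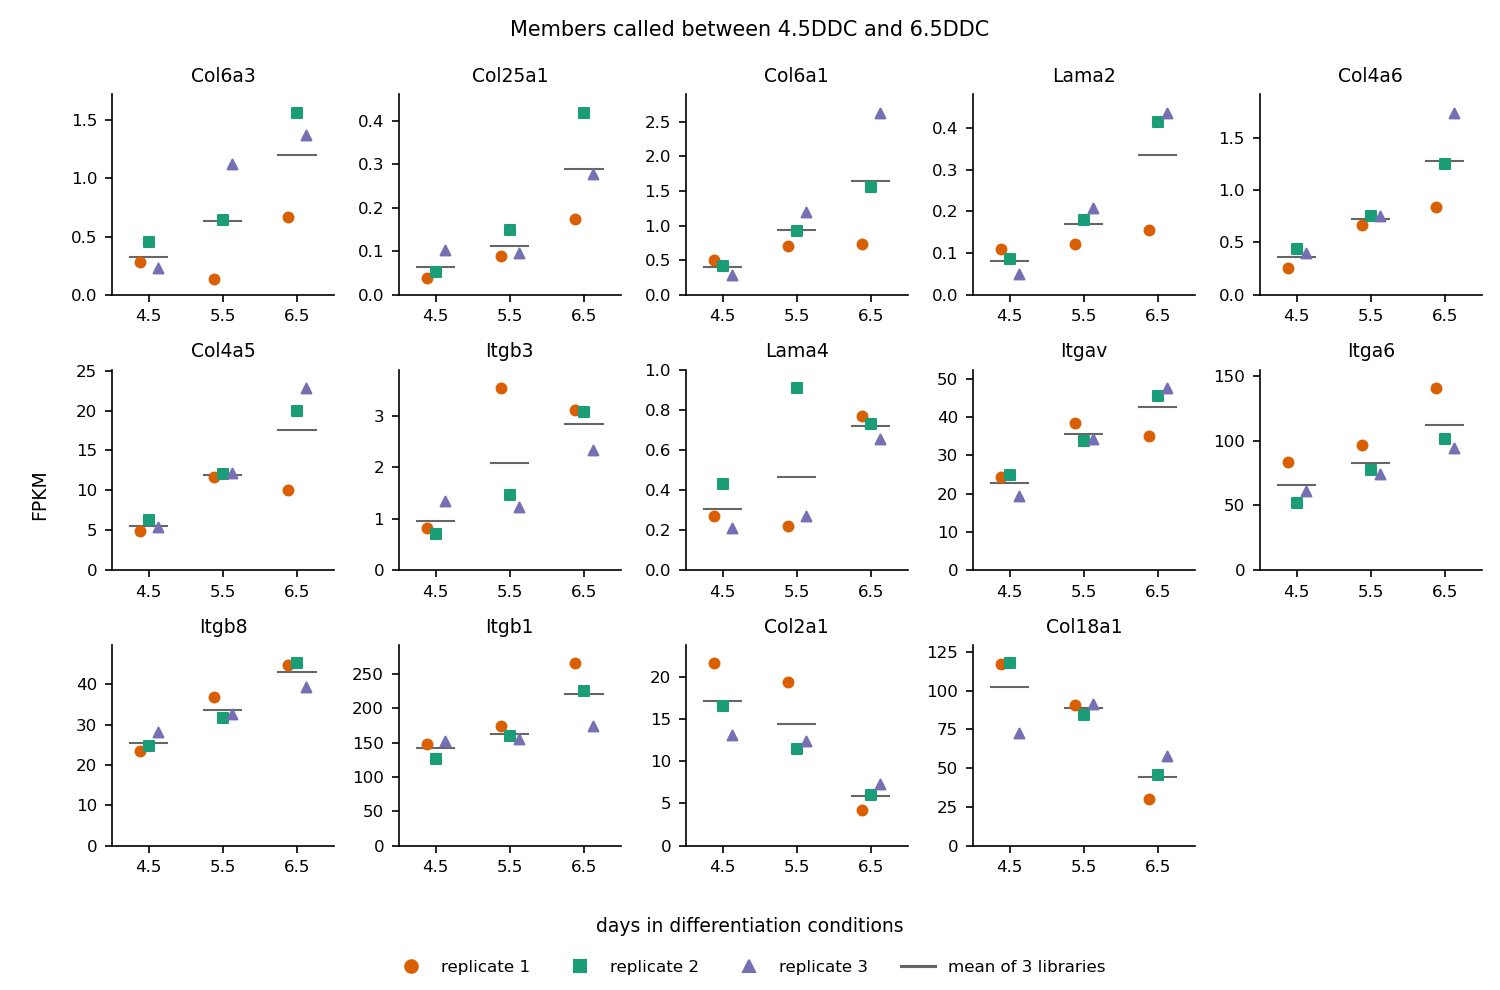
FPKM (vertical axes, from 0) of the 14 members called between 4.5DDC and 6.5DDC, by time point in days (horizontal axes), with 1 point for each library, marked by replicate number, and a line at the mean of 3 libraries. In every panel the 3 points at 6.5DDC lie beyond all 3 at 4.5DDC, above for 12 members and below for Col2a1 and Col18a1.

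The collagen IV chains divided into an abundant pair with no call and a scarcer pair that rose. Col4a1 and Col4a2, whose chains form the network found in nearly every basement membrane, were the most abundant. FPKM of Col4a1 was 62.7, 61.2 and 28.7 at 4.5DDC, 65.3, 41.9 and 41.4 at 5.5DDC and 91.6, 30.7 and 45.4 at 6.5DDC. That of Col4a2 was 46.5, 44.7 and 17.5 at 4.5DDC, 52.9, 35.0 and 29.1 at 5.5DDC and 53.8, 23.6 and 33.1 at 6.5DDC. The highest library of both at 6.5DDC was replicate 1, and the time points overlapped. Their log2 fold changes from 4.5DDC to 6.5DDC were 0.15 ± 0.41 and 0.20 ± 0.39 (SE, n = 3 libraries per time point), with adjusted p of 0.825 and 0.744. Without 6.5DDC replicate 1 the values turned negative, at −0.45 and −0.27, and without 4.5DDC replicate 3 they were −0.11 and −0.07. The ratio of Col4a1 to Col4a2 in FPKM kept between 1.20 and 1.70 in the 9 libraries.

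Col4a5 and Col4a6, whose chains join in a network of more specialised basement membranes such as those of smooth muscle and of Bowman's capsule, both rose. FPKM of Col4a5 was 4.90, 6.23 and 5.46 at 4.5DDC, 11.7, 12.05 and 12.1 at 5.5DDC and 9.99, 19.9 and 22.8 at 6.5DDC. At 6.5DDC replicate 1 was near the 5.5DDC libraries and below replicates 2 and 3, and all 3 were above 4.5DDC. It rose 3.39-fold from 4.5DDC to 6.5DDC (log2 1.76 ± 0.24, adjusted p = 0.00218, higher in 3 of 3 libraries). FPKM of Col4a6 was 0.254, 0.437 and 0.394 at 4.5DDC, 0.668, 0.750 and 0.754 at 5.5DDC and 0.840, 1.25 and 1.74 at 6.5DDC. Every library at 6.5DDC exceeded every library at 5.5DDC, and these exceeded all at 4.5DDC. Its log2 fold change was 1.81 ± 0.32 (adjusted p = 0.00603, higher in 3 of 3 libraries). Col4a5 was between 11.9 and 19.3 times as abundant as Col4a6 in FPKM. Col4a3 and Col4a4, the partners of Col4a5 in the glomerular network, were not tested and stayed at or under 0.196 FPKM, with 32 and 9 counts over the 9 libraries.

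The genes of each pair lie head to head and are read outward from a shared interval, so the promoter windows are shown for both pairs. RefSeq promoter windows on build GRCm38.p6, from 250 bases before to 50 bases after the annotated start, were matched for 62 of the 86 members. The window of Col4a1 is chr8:11312777-11313076 on the minus strand and that of Col4a2 is chr8:11312555-11312854 on the plus strand. The starts of this pair are 21 bases apart and the windows share 78 bases. The window of Col4a6 is chrX:141474027-141474326 on the minus strand and that of Col4a5 is chrX:141475169-141475468 on the plus strand, with starts 1343 bases apart and 0 shared bases. Each sequence is written 5′ to 3′ on the strand of its gene, and capitals mark matches to CCAAT (or ATTGG on the other strand) and to GGGCGG (or CCGCCC).
Col4a1: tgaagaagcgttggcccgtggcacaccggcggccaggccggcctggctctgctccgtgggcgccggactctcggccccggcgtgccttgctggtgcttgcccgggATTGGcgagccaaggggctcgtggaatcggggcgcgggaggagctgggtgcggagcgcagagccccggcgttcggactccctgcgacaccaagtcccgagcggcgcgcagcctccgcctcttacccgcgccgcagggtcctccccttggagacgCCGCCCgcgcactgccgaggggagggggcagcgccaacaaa
Col4a2: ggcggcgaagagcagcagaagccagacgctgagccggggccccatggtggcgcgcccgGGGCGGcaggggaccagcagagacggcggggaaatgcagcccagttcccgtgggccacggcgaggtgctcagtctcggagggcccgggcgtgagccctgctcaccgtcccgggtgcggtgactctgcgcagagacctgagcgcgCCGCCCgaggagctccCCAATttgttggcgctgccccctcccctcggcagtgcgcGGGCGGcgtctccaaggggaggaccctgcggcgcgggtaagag
Col4a5: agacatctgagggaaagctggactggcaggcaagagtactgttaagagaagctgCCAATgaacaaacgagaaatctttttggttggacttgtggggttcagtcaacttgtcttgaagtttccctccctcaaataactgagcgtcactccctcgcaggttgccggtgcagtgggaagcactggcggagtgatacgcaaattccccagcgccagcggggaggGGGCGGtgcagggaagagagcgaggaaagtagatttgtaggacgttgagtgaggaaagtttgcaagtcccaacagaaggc
Col4a6: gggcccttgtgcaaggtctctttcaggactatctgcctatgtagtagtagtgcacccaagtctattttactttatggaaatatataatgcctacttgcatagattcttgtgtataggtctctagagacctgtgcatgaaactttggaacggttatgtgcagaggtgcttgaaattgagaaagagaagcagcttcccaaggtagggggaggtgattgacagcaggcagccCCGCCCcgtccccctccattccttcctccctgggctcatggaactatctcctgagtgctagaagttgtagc
The GC content was 74.0% and 73.7% in the windows of Col4a1 and Col4a2, and 52.7% and 48.3% in those of Col4a5 and Col4a6, against a median of 58.8% in the 68 windows of members and 52.7% in all 32851 windows. A match to GGGCGG or its complement was in 35.7% of all windows and in those of 34 of the 62 members (54.8%), including all 4 printed here and 7 of the 10 called members with a window. A match to CCAAT or its complement was in 37.4% of all windows and in those of 18 members (29.0%). The letters TATAAA, or TTTATA on the other strand, were in 13.6% of all windows and in those of 5 members, of which 0 were called. A match describes the letters only, and no factor was measured at these sites.

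The 11 laminin chains were dominated by 1 gamma chain and by pairs of alpha and beta chains. Lamc1, the gamma chain of most laminins, made up between 99.2% and 99.8% of the summed FPKM of the gamma chains in each library. Its FPKM was 107, 59.0 and 70.0 at 4.5DDC, 125, 88.2 and 102 at 5.5DDC and 251, 112 and 113 at 6.5DDC. The library of 6.5DDC replicate 1 was more than 100 FPKM above every other, and replicate 1 was also highest at the earlier times. In FPKM the lowest library of 6.5DDC was above the highest of 4.5DDC, and 5.5DDC overlapped both. The log2 fold change was 0.72 ± 0.35 (adjusted p = 0.169), and without the 3 libraries of replicate 1 it was called at 0.55. Lamb1, the beta chain of the main embryonic laminins, was at 21.3, 13.6 and 9.04 FPKM at 4.5DDC, 13.5, 9.19 and 11.0 at 5.5DDC and 80.4, 21.3 and 16.7 at 6.5DDC. Again 6.5DDC replicate 1 was far above the rest, and replicates 2 and 3 at 6.5DDC lay within the range of 4.5DDC. Its log2 fold change was 1.29 ± 0.60 (adjusted p = 0.152). Within replicates 1, 2 and 3 the differences were 0.90, 0.39 and 0.72 for Lamc1 and 1.71, 0.33 and 1.11 for Lamb1. A block for the replicate number, whose libraries did not all pair over this span, called both, at 0.67 and 1.08.

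Lama1, the alpha chain of the first laminin of the embryo, showed the same library apart, at 22.3, 18.1 and 13.5 FPKM at 4.5DDC, 15.0, 11.6 and 11.9 at 5.5DDC and 60.8, 11.1 and 12.03 at 6.5DDC. The other 2 libraries of 6.5DDC were below all 3 of 4.5DDC, so the direction rests on a single library. With all 9 libraries the log2 fold change was 0.66 ± 0.57 (adjusted p = 0.439). Without 6.5DDC replicate 1 it was −0.66, with an adjusted p of 0.0488, and without all 3 libraries of replicate 1 it was −0.49, with an adjusted p of 0.0401, where the alternatives spanned 0.0401 to 0.849. In 6.5DDC replicate 1 the basement membrane partners Nid1 (37.5, 16.7 and 17.2 FPKM at 6.5DDC) and Sparc (620.2, 297 and 306 FPKM) were also highest, as were 10 of the 12 endoderm genes. The exceptions were Amn, a visceral endoderm receptor part, and Dab2, an adaptor of endocytosis, which was at 16.8, 8.49 and 7.39 FPKM at 4.5DDC, 15.7, 6.14 and 8.79 at 5.5DDC and 7.90, 7.57 and 7.77 at 6.5DDC. Whether cells of another type contributed to the laminin level of that library was not tested.

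**Figure D2:**
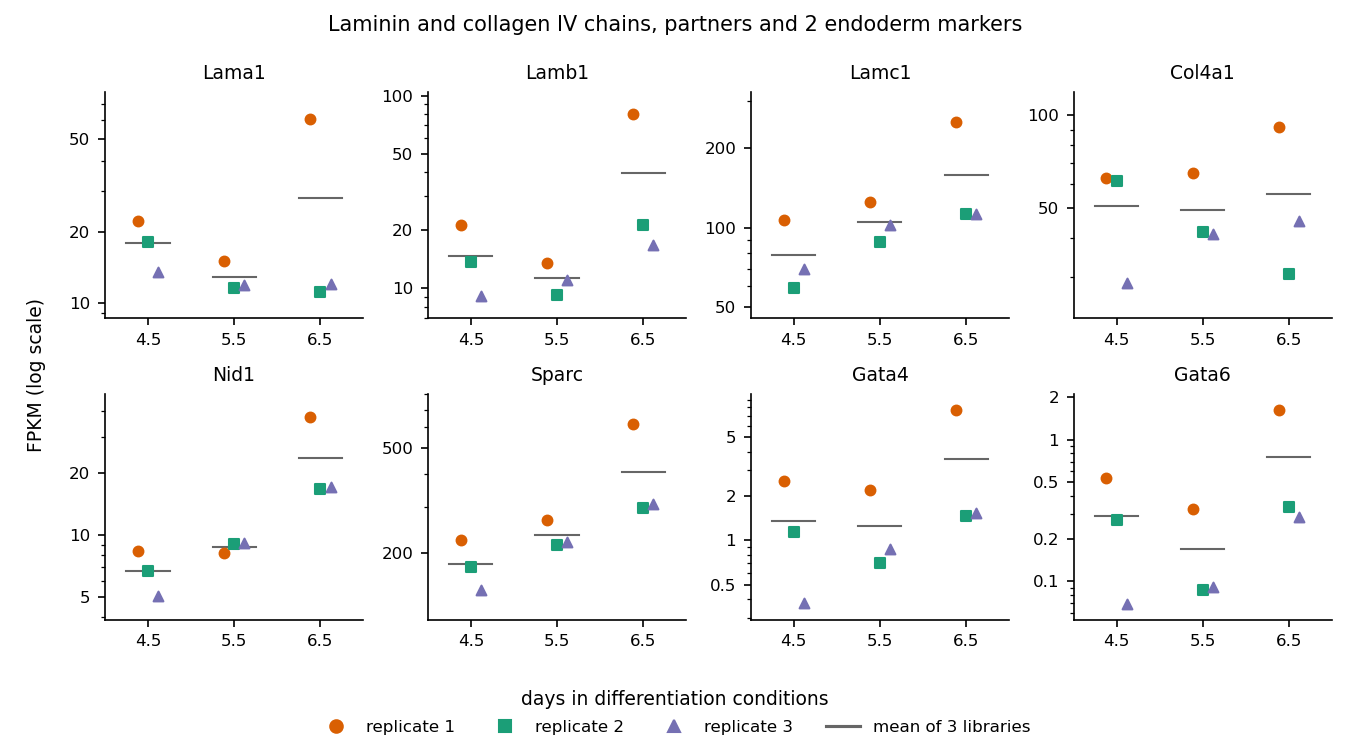
FPKM (vertical axes, log scale) of the laminin chains Lama1, Lamb1 and Lamc1, Col4a1, the basement membrane partners Nid1 and Sparc, and the endoderm markers Gata4 and Gata6, by time point in days, with 1 point for each library and a line at the mean. In all 8 panels the replicate 1 library of 6.5DDC is the highest of the 9 points.

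Lama5, the alpha chain of most later epithelial laminins, was at 16.0, 6.52 and 4.05 FPKM at 4.5DDC, 16.3, 13.3 and 11.4 at 5.5DDC and 4.54, 2.75 and 11.4 at 6.5DDC. Its 3 libraries at 5.5DDC were close together and those at the other times spread widely, so the time points overlapped. Between the first and last time the log2 fold change was −0.71 ± 0.48 (adjusted p = 0.315). As a share of the summed FPKM of the 5 alpha chains, Lama1 made up 57.0%, 71.8% and 75.4% at 4.5DDC, 45.7%, 44.2% and 49.6% at 5.5DDC and 90.8%, 70.8% and 47.5% at 6.5DDC. Lama5 took most of the remainder, with 40.9%, 25.8% and 22.7% at 4.5DDC, 49.7%, 50.8% and 47.4% at 5.5DDC and 6.78%, 17.5% and 45.1% at 6.5DDC. Thus the share of Lama1 was below every 4.5DDC value in each 5.5DDC library, and at 6.5DDC its 3 libraries spread from 47.5% to 90.8%. Lamb2, the beta chain of synaptic and kidney laminins, was at 26.3, 18.3 and 8.34 FPKM at 4.5DDC, 51.8, 21.2 and 20.2 at 5.5DDC and 14.1, 9.96 and 22.3 at 6.5DDC. It was highest in 5.5DDC replicate 1, overlapped between time points and had a log2 fold change of −0.21 ± 0.46 (adjusted p = 0.782), which turned positive without 4.5DDC replicate 1 (0.19) or without 6.5DDC replicate 2 (0.02).

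Of the 5 tested laminin alpha chains 2 scarce ones rose and 0 fell, against 9.21% and 9.53% of all genes. Of the 3 beta and 3 gamma chains tested 0 were called. Lama2, the alpha chain of muscle and peripheral nerve laminins, was at 0.110, 0.0847 and 0.0491 FPKM at 4.5DDC, 0.121, 0.179 and 0.209 at 5.5DDC and 0.156, 0.415 and 0.438 at 6.5DDC, from 330 counts over the 9 libraries. At 6.5DDC replicates 2 and 3 were well above replicate 1, which was still above every library of 4.5DDC. It rose with a log2 fold change of 1.99 ± 0.47 (adjusted p = 0.0191, higher in 3 of 3 libraries). The call was lost without 4.5DDC replicate 2 (1.99) or 3 (1.75), without 6.5DDC replicate 2 (1.80) or 3 (1.78), and with limma on log2 FPKM with a pseudocount of 1 (0.30) or 0.1 (1.21). Lama4, the alpha chain of vessel walls, was at 0.270, 0.433 and 0.213 FPKM at 4.5DDC, 0.222, 0.910 and 0.269 at 5.5DDC and 0.769, 0.731 and 0.655 at 6.5DDC, from 359 counts. In FPKM the 3 libraries of 6.5DDC were close together and above 4.5DDC, and 5.5DDC replicate 2 was higher than all of them. In scaled counts, by contrast, all 3 libraries of 6.5DDC were above all 3 of 5.5DDC. Its log2 fold change was 1.20 ± 0.31 (adjusted p = 0.0262, higher in 3 of 3 libraries). That call was lost without any 1 of the 3 libraries of 4.5DDC (1.10, 1.29 and 1.19), without 6.5DDC replicate 2 (1.20) or 3 (1.04), and with limma on log2 FPKM at both pseudocounts (0.40 and 1.05).

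Lama3 and Lamb3, chains of epithelial laminins, were not called. Lama3 was between 0.0818 and 1.18 FPKM, highest in 5.5DDC replicate 1. Lamb3 was at 0.0661, 0.0528 and 0.0544 FPKM at 4.5DDC, 0.101, 0.171 and 0.0539 at 5.5DDC and 0.266, 0.0714 and 0.734 at 6.5DDC, with all 3 libraries of 6.5DDC above 4.5DDC and 79 counts in all. The log2 fold changes were 1.76 ± 0.76 for Lama3 and 1.60 ± 0.62 for Lamb3, with adjusted p of 0.130 and 0.0968. Lama3 was called without 4.5DDC replicate 1, without 5.5DDC replicate 1, without all of replicate 1 and with the block for the replicate number. Lamc3, a gamma chain of peripheral nerve and retina, was at 0.0370, 0.0473 and 0.0366 FPKM at 4.5DDC, 0.0364, 0.115 and 0.0483 at 5.5DDC and 0.0420, 0.152 and 0.499 at 6.5DDC, and its highest value, in 6.5DDC replicate 3, was over 3 times the next. Its log2 fold change was 1.69 ± 0.65 (adjusted p = 0.0944), and it was called without 6.5DDC replicate 1, at 2.08, and also without all of replicate 1.

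Of the 11 fibrillar collagens, 10 were tested and 1, Col2a1, was called, as a fall, against 9.53% of all genes. Col2a1, the collagen of cartilage and of the notochord sheath, was at 21.7, 16.6 and 13.2 FPKM at 4.5DDC, 19.4, 11.4 and 12.4 at 5.5DDC and 4.26, 6.03 and 7.36 at 6.5DDC. The 3 libraries of 6.5DDC were below all 6 earlier ones, which overlapped with each other. It fell by 1.52 on the log2 scale (SE 0.27, adjusted p = 0.00634, lower in 3 of 3 libraries). Col5a1, a chain of collagen V that sets fibril width, was at 48.4, 15.1 and 13.1 FPKM at 4.5DDC, 58.4, 13.3 and 14.8 at 5.5DDC and 20.6, 13.5 and 18.9 at 6.5DDC. Replicate 1 was highest at each time point, above 48 FPKM at the first and second, and replicates 2 and 3 kept between 13.1 and 18.9 FPKM throughout. Its log2 fold change was −0.43 ± 0.61 (adjusted p = 0.651), and it became 0.37 without 4.5DDC replicate 1 and 0.16 without all 3 libraries of replicate 1.

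Col3a1, the collagen of extensible connective tissue and of the meninges, behaved in the opposite way between replicates. It was at 0.235, 4.72 and 1.74 FPKM at 4.5DDC, 0.690, 9.86 and 9.39 at 5.5DDC and 2.04, 21.4 and 30.4 at 6.5DDC. Replicate 1 was lowest at each time point, and within each replicate number 6.5DDC was the highest of the 3 times. Between 4.5DDC and 6.5DDC the difference within replicates 1, 2 and 3 was 3.08, 2.19 and 3.97 on the log2 scale. The log2 fold change was 2.98 ± 1.21 (adjusted p = 0.112), which did not pass the threshold, and it was 2.96 without the libraries of replicate 1, with an adjusted p of 0.00150 where the alternatives spanned 0.000497 to 0.225. A block for the replicate number, whose libraries did not all pair over this span, also called it, at 3.08. Col1a2 and Col1a1, the chains of the main collagen of bone and skin, were not called. Col1a2 was at 0.432, 1.47 and 0.594 FPKM at 4.5DDC, 0.423, 1.57 and 1.85 at 5.5DDC and 0.336, 3.19 and 5.12 at 6.5DDC, with replicate 1 the lowest at every time. Col1a1 was between 0.199 and 6.97 FPKM. Their log2 fold changes of 1.82 ± 0.85 and 1.38 ± 0.75 had adjusted p of 0.156 and 0.214, and Col1a2 was called without 6.5DDC replicate 1 and without all of replicate 1.

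The sum of the neural crest and mesenchyme markers was also lowest in replicate 1. The summed FPKM of the 11 listed genes in the tables was 16.3, 20.8 and 33.3 at 4.5DDC, 20.5, 34.8 and 33.5 at 5.5DDC and 34.1, 77.0 and 79.7 at 6.5DDC, with Dcn, a proteoglycan that binds collagen fibrils, as the most abundant. Dcn itself was at 4.91, 8.85 and 24.2 FPKM at 4.5DDC, 6.45, 20.4 and 22.1 at 5.5DDC and 17.5, 61.9 and 63.8 at 6.5DDC. The order of the sum rests on Dcn, because the sum of the other listed genes was lowest in replicate 1 at no time point. Lum, another fibril-binding proteoglycan, was at 0.0448, 0.251 and 0.332 FPKM at 4.5DDC, 0.0315, 0.663 and 0.658 at 5.5DDC and 0.318, 2.81 and 3.38 at 6.5DDC. Both were lowest in replicate 1 at each time, while Twist1, Pdgfra, Snai2 and Prrx2, mesenchyme factors and a growth factor receptor, were each highest in replicate 1 at 2 of the 3 times in FPKM. Neither Dcn nor Lum was called (1.85 ± 0.69 and 3.37 ± 1.10 on the log2 scale, adjusted p = 0.0891 and 0.0583). Of 8 tested genes, Twist1 rose (0.74 ± 0.19 on the log2 scale, adjusted p = 0.0276) and Prrx2 fell (−2.96 ± 0.58, adjusted p = 0.00925), both transcription factors of mesenchyme, against 9.21% higher and 9.53% lower among all genes. The neural crest factors Sox10 and Foxd3 had 3 counts each over the 9 libraries, and Foxc2 was not analysed here. The part of such cells in the levels of the fibrillar collagens was not tested.

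**Figure D3:**
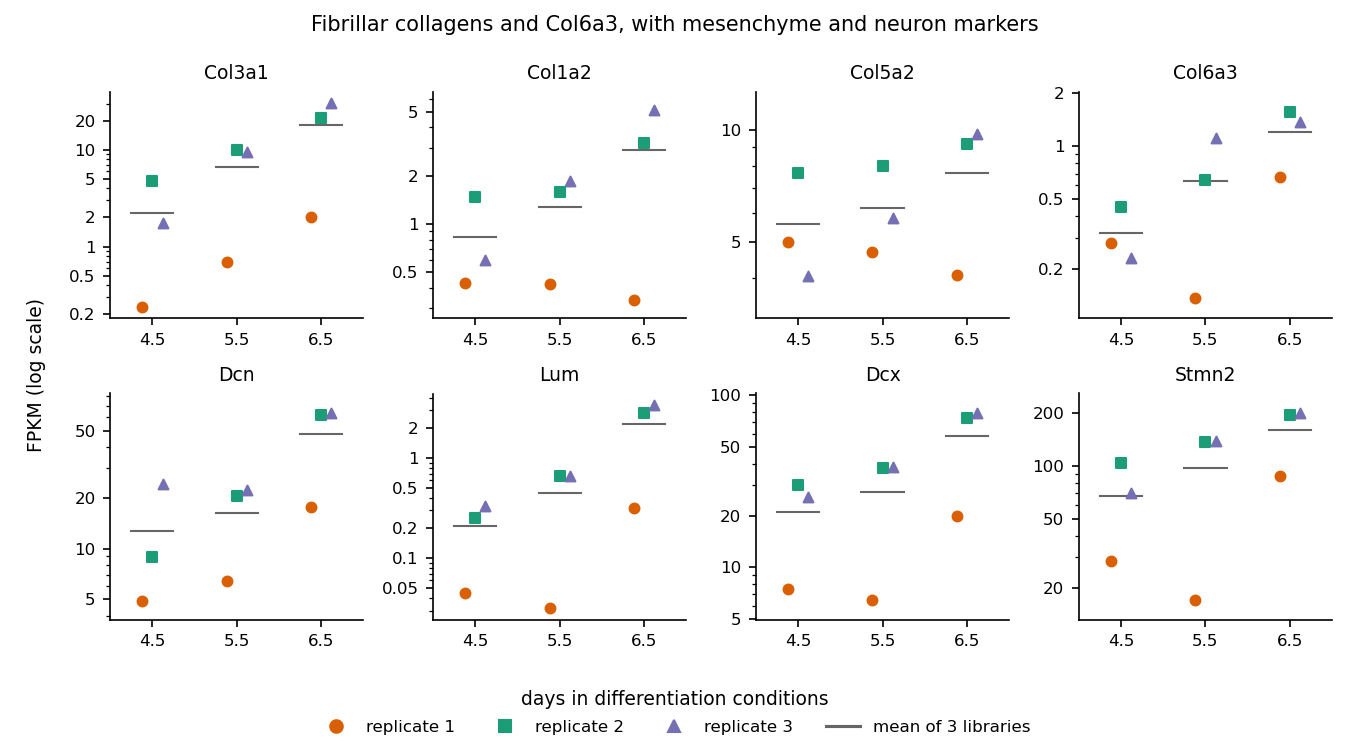
FPKM (vertical axes, log scale) of Col3a1, Col1a2, Col5a2 and Col6a3 beside Dcn and Lum, which bind collagen fibrils, and the neuron markers Dcx and Stmn2, by time point in days, with 1 point for each library and a line at the mean. At 6.5DDC the replicate 1 point is the lowest of the 3 in all 8 panels.

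Of 18 tested collagens outside these classes, 3 rose and 1 fell, against 9.21% and 9.53% of all genes. Col18a1, a heparan sulfate proteoglycan of the basement membrane whose end is released as endostatin, had the highest mean FPKM of the collagens over the 9 libraries, at 117, 118 and 72.7 FPKM at 4.5DDC, 91.0, 84.1 and 91.2 at 5.5DDC and 30.2, 45.8 and 57.6 at 6.5DDC. All 3 libraries of 6.5DDC were below all 6 earlier ones, with replicate 1 the lowest, and at 6.5DDC its mean of 44.5 FPKM was below the 55.9 FPKM of Col4a1. It fell by 1.65 on the log2 scale (SE 0.40, adjusted p = 0.0206, lower in 3 of 3 libraries). The call was lost without 4.5DDC replicate 2 (−1.43) or without 6.5DDC replicate 2 (−1.57), in the same direction. The summed FPKM of the 27 collagens of this class was 199, 164 and 95.3 at 4.5DDC, 216, 131 and 142 at 5.5DDC and 83.9, 101 and 123 at 6.5DDC.

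The collagen VI chains form beaded filaments next to basement membranes. Col6a1 was at 0.495, 0.413 and 0.279 FPKM at 4.5DDC, 0.704, 0.922 and 1.19 at 5.5DDC and 0.733, 1.56 and 2.63 at 6.5DDC, from 710 counts. Each 6.5DDC library was above all of 4.5DDC, and replicate 1 was the lowest of its time at 5.5DDC and 6.5DDC. It rose by a log2 fold change of 2.01 ± 0.44 (adjusted p = 0.0146, higher in 3 of 3 libraries), and the call was lost only without 4.5DDC replicate 2 (2.03). Col6a3 was at 0.284, 0.454 and 0.234 FPKM at 4.5DDC, 0.137, 0.641 and 1.12 at 5.5DDC and 0.671, 1.56 and 1.37 at 6.5DDC, from 329 counts. The 5.5DDC libraries spread from below 4.5DDC to the level of 6.5DDC. Its log2 fold change of 3.33 ± 0.82 was the largest among called members in counts (adjusted p = 0.0221, higher in 3 of 3 libraries). In FPKM its mean went from 0.324 to 1.20, a smaller step than the 10.1-fold of the counts. The call was lost without any 1 of the 4.5DDC libraries (3.19, 3.29 and 3.51), without 6.5DDC replicate 2 (3.27) or 3 (2.82), with limma voom (3.04) and with limma on log2 FPKM at pseudocounts of 1 (0.71) and 0.1 (1.58). Col6a2, the third chain of the filament, was at 0.665, 0.369 and 0.140 FPKM at 4.5DDC, 0.572, 0.769 and 0.720 at 5.5DDC and 0.310, 0.799 and 1.38 at 6.5DDC. Its times overlapped, and it was not called, with a log2 fold change of 1.09 ± 0.57 (adjusted p = 0.198), except without all of replicate 1.

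Col25a1, a membrane-bound collagen made by neurons, was at 0.0388, 0.0516 and 0.104 FPKM at 4.5DDC, 0.0900, 0.148 and 0.0948 at 5.5DDC and 0.174, 0.419 and 0.276 at 6.5DDC, from 182 counts. The 6.5DDC libraries were above all the others. It rose by a log2 fold change of 2.08 ± 0.49 (adjusted p = 0.0189, higher in 3 of 3 libraries), and the call was lost without 4.5DDC replicate 1 (1.76) or 2 (2.01), without 6.5DDC replicate 2 (1.69) and with limma on log2(FPKM + 1), where it was 0.27. Of the neuron markers 1 of 6 tested, Map2, a microtubule protein of dendrites, rose (1.65 ± 0.31, adjusted p = 0.00768), against 9.21% of all genes, and the other 5 were not called. Of the same class, Col22a1, a collagen of tissue junctions, was at 40.6, 26.1 and 9.05 FPKM at 4.5DDC, 62.3, 18.5 and 19.6 at 5.5DDC and 20.02, 16.6 and 19.7 at 6.5DDC. It was highest in replicate 1 at each time, and the times overlapped (log2 fold change 0.25 ± 0.35, adjusted p = 0.647). That estimate was −0.19 and −0.18 with limma on log2 FPKM, and −0.0023 without 4.5DDC replicate 3, while without all of replicate 1 it was called at 0.66. Col8a2, a short-chain collagen of the corneal basement membrane, was at 26.4, 9.05 and 7.53 FPKM at 4.5DDC, 40.9, 15.9 and 16.3 at 5.5DDC and 21.4, 24.1 and 22.8 at 6.5DDC. Replicates 2 and 3 were lower at 4.5DDC than later, while replicate 1 was higher than both there (log2 fold change 0.68 ± 0.48, adjusted p = 0.338). It was called without 4.5DDC replicate 1, at 1.44, and without all 3 libraries of replicate 1, at 1.46.

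**Figure D4:**
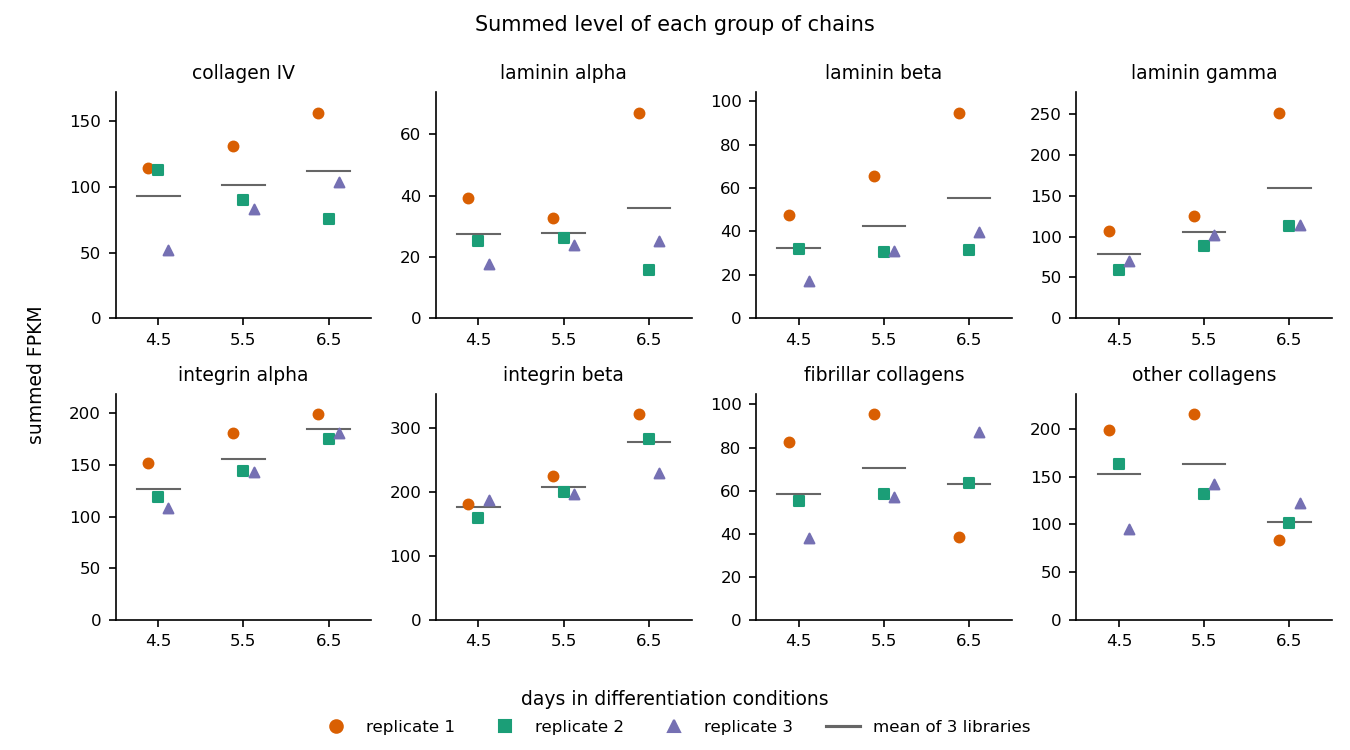
Summed FPKM (vertical axes, from 0) of the members of 8 groups of chains, by time point in days, with 1 point for each library and a line at the mean. The integrin alpha and beta sums at 6.5DDC lie above all 4.5DDC libraries, while the laminin sums at 6.5DDC are spread by the high replicate 1 library.

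Among the receptors, 5 of 16 tested integrin chains rose and 0 fell, against 9.21% and 9.53% of all genes. The summed FPKM of the 18 alpha chains was 152, 119 and 108 at 4.5DDC, 181, 144 and 143 at 5.5DDC and 199, 175 and 181 at 6.5DDC, and all 3 sums at 6.5DDC exceeded those at 4.5DDC. Itga6, the alpha chain of the main laminin receptors, was the most abundant, at 83.8, 51.5 and 61.3 FPKM at 4.5DDC, 96.6, 77.5 and 74.5 at 5.5DDC and 141, 101 and 94.5 at 6.5DDC. Replicate 1 was highest at each time, and each 6.5DDC library was above every 4.5DDC library. It rose 1.75-fold (log2 0.81 ± 0.23, adjusted p = 0.0377, higher in 3 of 3 libraries). The call was lost without 4.5DDC replicate 2 (0.64) or 3 (0.80), without 5.5DDC replicate 2 (0.81) or 3 (0.81) and without 6.5DDC replicate 1 (0.58) or 2 (0.88). A fit of the 6 libraries of these 2 times alone lost it too, at 0.84. Itga3, another laminin-binding chain, was at 18.1, 17.4 and 11.0 FPKM at 4.5DDC, 19.5, 8.63 and 10.01 at 5.5DDC and 7.12, 9.10 and 11.9 at 6.5DDC. The times overlapped, and the log2 fold change was −0.73 ± 0.35 (adjusted p = 0.172). Itga7, the muscle laminin receptor chain, was not tested, with 73 counts in all.

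Itgav, the alpha chain of receptors for vitronectin, fibronectin and latent TGF-beta, was at 24.3, 24.8 and 19.5 FPKM at 4.5DDC, 38.5, 33.7 and 34.4 at 5.5DDC and 35.1, 45.6 and 47.6 at 6.5DDC. The 4.5DDC libraries were below all others, and the 6.5DDC libraries spread from the level of 5.5DDC upward. It rose 1.79-fold (log2 0.84 ± 0.15, adjusted p = 0.00582, higher in 3 of 3 libraries). A gene on the other strand overlaps 5.90% of its exonic bases. Of the beta chains known to pair with Itgav, Itgb8, which with it releases active TGF-beta, was at 23.5, 24.8 and 28.2 FPKM at 4.5DDC, 36.9, 31.5 and 32.6 at 5.5DDC and 44.9, 45.2 and 39.2 at 6.5DDC. The 3 time points did not overlap and followed each other upward. Its fold change was 1.69 (log2 0.75 ± 0.15, adjusted p = 0.00862, higher in 3 of 3 libraries). Itgb3, which pairs with Itgav or with the platelet chain Itga2b, was at 0.814, 0.709 and 1.34 FPKM at 4.5DDC, 3.54, 1.47 and 1.23 at 5.5DDC and 3.11, 3.07 and 2.34 at 6.5DDC. Here 5.5DDC replicate 1 was already the highest of the 9 libraries, and 6.5DDC was above 4.5DDC without overlap. It rose with a log2 fold change of 1.52 ± 0.42 (adjusted p = 0.0344, higher in 3 of 3 libraries), and the call was lost without 4.5DDC replicate 1 (1.39) or 2 (1.33) and without 6.5DDC replicate 1 (1.41) or 2 (1.47). Itgb5, a vitronectin receptor chain, was at 9.18, 8.27 and 5.67 FPKM at 4.5DDC, 10.3, 7.43 and 8.27 at 5.5DDC and 8.31, 9.58 and 13.9 at 6.5DDC. Its times overlapped, and it was not called (log2 fold change 0.42 ± 0.36, adjusted p = 0.442).

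Itgb1, the common beta chain of laminin, collagen and fibronectin receptors, was the most abundant member, at 148, 126 and 152 FPKM at 4.5DDC, 174, 159.5 and 155 at 5.5DDC and 266, 225 and 174 at 6.5DDC. It made up between 75.7% and 82.4% of the summed FPKM of the beta chains in each library. At 6.5DDC replicate 1 was highest and replicate 3 was nearest to the earlier times. It rose 1.54-fold (log2 0.63 ± 0.19, adjusted p = 0.0419, higher in 3 of 3 libraries), the smallest of the 14 called changes. Within replicates 1, 2 and 3 the differences were 0.90, 0.85 and 0.07 on the log2 scale. The call was lost without any 1 of the 4.5DDC libraries (0.64, 0.53 and 0.71), without 5.5DDC replicate 2 (0.63) or 3 (0.63) and without 6.5DDC replicate 1 (0.44) or 2 (0.63). It was also lost in the fit of the 6 libraries alone (0.66) and without the 3 libraries of replicate 1 (0.46, with an adjusted p of 0.110 where the alternatives spanned 0.0116 to 0.149).

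The alpha chains for collagen and for the RGD peptide were lower than those for laminin. In each library the laminin-binding chains Itga3, Itga6 and Itga7 summed to between 69.1 and 148 FPKM, and the RGD-binding chains to between 25.2 and 56.9 FPKM. The 4 collagen-binding alpha chains Itga1, Itga2, Itga10 and Itga11 summed to between 0.686 and 1.89 FPKM in a library. From 4.5DDC to 6.5DDC 0 of the 4 were called, against 18.7% of all genes, with Itga11 alone at an unadjusted p under 0.05. All 4 had a positive log2 fold change, with a median of 0.755. Itga1 and Itga11 were called without 6.5DDC replicate 1, Itga1, Itga10 and Itga11 without all of replicate 1, and Itga11 with a block for the replicate number. Itga10 shares 33.5% of its exonic bases with another annotated gene on the same strand, so its level is uncertain. Itga5, the fibronectin receptor chain, was at 6.64, 5.59 and 4.15 FPKM at 4.5DDC, 5.42, 5.43 and 5.79 at 5.5DDC and 2.86, 3.64 and 4.91 at 6.5DDC. Each 6.5DDC library was below each 5.5DDC library, and the log2 fold change over the whole span was −0.54 ± 0.21 (adjusted p = 0.102). Itga4, which binds vascular adhesion molecules and fibronectin, was at 0.740, 0.289 and 0.420 FPKM at 4.5DDC, 0.546, 0.627 and 0.510 at 5.5DDC and 0.968, 0.962 and 0.816 at 6.5DDC, and all 3 of 6.5DDC were above both earlier times (log2 fold change 0.89 ± 0.33, adjusted p = 0.0847). It was called by DESeq2, without 4.5DDC replicate 1 and without all of replicate 1.

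The 5 leukocyte alpha chains had between 0 and 45 counts each over the 9 libraries, and Itgam showed a mismatch between the tables. Its FPKM was between 2.59 and 5.49, while its counts summed to 45 over the 9 libraries, and 68.7% of its exonic bases are shared with another annotated gene on the same strand. Leukocyte markers were low too, with Tyrobp at 0 counts, Spi1 at 1 and Ptprc at 31 over the 9 libraries, and with Cd68, a lysosomal protein, as the most abundant of the list. Their summed FPKM was 5.75, 2.42 and 3.51 at 4.5DDC, 4.85, 3.06 and 3.49 at 5.5DDC and 1.88, 2.35 and 2.74 at 6.5DDC. Of 2 tested genes 0 were called, against 18.7% of all genes, with Csf1r, a growth factor receptor, at an unadjusted p under 0.05. Itgb2, the beta chain of leukocytes, had 20 counts and Itgb7 had 5. Itgb4, the beta chain of hemidesmosomes, and Itgb6, of injured epithelia, had 59 and 36 counts. None of these 4 beta chains was tested.

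Of the 5 symbols taken in by the pattern alone, 3 were tested. From 4.5DDC to 6.5DDC 0 of them were called, against 18.7% of all genes, and 0 had an unadjusted p under 0.05. Itgb1bp1, a protein that binds the tail of Itgb1 inside the cell, was at 37.3, 43.1 and 39.3 FPKM at 4.5DDC, 42.5, 48.1 and 41.6 at 5.5DDC and 69.8, 47.7 and 43.7 at 6.5DDC. Itgb3bp, which is also a centromere protein, was at 29.2, 25.3 and 33.1 FPKM at 4.5DDC, 25.1, 22.3 and 19.7 at 5.5DDC and 25.9, 18.5 and 16.9 at 6.5DDC. Itgb1bp2, a muscle protein, was at 0.973, 1.64 and 0.965 FPKM at 4.5DDC, 0.584, 0.559 and 0.507 at 5.5DDC and 0.484, 0.485 and 0.447 at 6.5DDC. The first was highest in 6.5DDC replicate 1, and Itgb1bp2 was higher in each 4.5DDC library than in any later one. Their log2 fold changes from 4.5DDC to 6.5DDC were 0.41 ± 0.20, −0.38 ± 0.19 and −0.75 ± 0.35, with adjusted p of 0.174, 0.194 and 0.154. Itgb1bp2 was called by limma on log2 FPKM, at −0.56 and −1.14 with pseudocounts of 1 and 0.1. Itgbl1, a secreted integrin-like protein, had 13 counts, and Itgb2l had 0. A gene on the other strand overlaps 16.9% of the exonic bases of Itgb1bp1.

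In the shorter intervals no member passed the edgeR test. From 4.5DDC to 5.5DDC 0 of 62 members were called, against 0.0746% of all genes, and limma voom gave 0 as well, against 0.0746% of all genes. At an unadjusted p under 0.05 there were 9 members (14.5%), against 15.4% of all genes, so the share of members was no higher than that of all genes. They were Col26a1, Col27a1, Col4a5, Col4a6, Col6a1, Col6a3, Itgav, Itgb3 and Itgb8, all of them higher at 5.5DDC. A block for the replicate number, whose libraries paired between these times, called Col3a1 and Col4a5 (1.44% of all genes), and DESeq2 called Col4a5 of 53 members with an adjusted p (3.8% of all genes). All 3 libraries of 5.5DDC were above those of 4.5DDC in 10 members (16.1%), against 11.7% of all genes, and below in 3 members (4.84%), against 13.7% of all genes. The median log2 fold change of the members was 0.41, and that of all genes was 0.0094. For Col4a5 the log2 fold change was 1.17 ± 0.23 in this interval (adjusted p = 0.127).

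From 5.5DDC to 6.5DDC 0 of 62 members were called as well, against 0.224% of all genes, and limma voom again gave 0, against 0.251% of all genes. At an unadjusted p under 0.05 there were 14 members (22.6%), against 18.5% of all genes. The block for the replicate number called Col2a1 and Col3a1 (1.32% of all genes), and DESeq2 called Col18a1 and Col2a1 of 59 members (4.77% of all genes). All 3 libraries of 6.5DDC were above those of 5.5DDC in 8 members (12.9%), against 11.5% of all genes, and below in 3 (4.84%), namely Col18a1, Col2a1 and Itga5, against 13.9% of all genes. The median log2 fold change was 0.31 for the members and 0.019 for all genes. Col2a1 and Col18a1, which were lower in each 6.5DDC library than in each earlier one, had log2 fold changes of −1.37 ± 0.27 and −1.39 ± 0.39 here (adjusted p = 0.0796 and 0.150), against −0.15 ± 0.26 and −0.26 ± 0.39 in the interval before. Col4a5 and Itgav had positive values in both intervals, with 1.17 ± 0.23 and 0.37 ± 0.15 first and 0.59 ± 0.23 and 0.47 ± 0.15 second. The 2 intervals share the 5.5DDC libraries, and the difference between them was not tested.

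Partners of the basement membrane changed in both directions. For each called gene of the partner and marker lists, the 3 libraries of 6.5DDC all lay on the same side of those of 4.5DDC in scaled counts. Of 19 tested genes of that list, 4 rose and 2 fell from 4.5DDC to 6.5DDC, against 9.21% and 9.53% of all genes. Nid1, which links laminin to collagen IV, was at 8.38, 6.70 and 5.04 FPKM at 4.5DDC, 8.15, 9.01 and 9.14 at 5.5DDC and 37.5, 16.7 and 17.2 at 6.5DDC and rose (log2 1.84 ± 0.32, adjusted p = 0.00588). Its 6.5DDC libraries were all above the earlier ones, with replicate 1 apart. Sparc, a collagen-binding protein, was at 224, 178 and 145 at 4.5DDC and 620.2, 297 and 306 at 6.5DDC and rose as well (1.18 ± 0.29, adjusted p = 0.0227). Postn and Tnc, matricellular proteins of growing tissue, rose from 0.0925, 0.304 and 0.160 to 0.362, 2.72 and 1.98 FPKM and from 0.636, 1.31 and 0.661 to 1.23, 3.47 and 3.53 FPKM (3.31 ± 0.98 and 1.66 ± 0.47 on the log2 scale, adjusted p = 0.0422 and 0.0376). For both, replicate 1 was the lowest at 6.5DDC, and for Tnc it was below 4.5DDC replicate 2 in FPKM. Fbn2, a microfibril protein of the embryo, and Fbln1, a binder of fibronectin and laminin, fell by 1.35 and 1.34 on the log2 scale (adjusted p = 0.00907 and 0.00497). Vtn, vitronectin, a ligand of Itgav receptors, had the highest mean of the list, 568 FPKM. It was at 547, 235 and 196 FPKM at 4.5DDC, 996, 468 and 498 at 5.5DDC and 1074, 459 and 643 at 6.5DDC and was not called (1.23 ± 0.45, adjusted p = 0.0843), with replicate 1 highest at each time.

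Genes that modify, export and cut collagen chains were mostly without a call. Of 25 tested genes for collagen processing, 4 rose and 1 fell. Colgalt2, which adds galactose to collagen, went from 1.499, 0.776 and 1.52 to 6.92, 5.37 and 5.36 FPKM (log2 2.20 ± 0.28, adjusted p = 0.00173). Pcolce, an enhancer of procollagen cleavage, Adamts2, which removes the amino end of procollagens, and P4ha3, a prolyl hydroxylase chain, rose by 1.49, 1.38 and 1.35 on the log2 scale. Leprel1, which hydroxylates prolines of collagen IV and others, went from 14.4, 10.7 and 13.0 to 7.85, 6.47 and 4.92 FPKM and fell (adjusted p = 0.00407), the smallest of these 5 changes. P4hb, the shared chain of prolyl hydroxylases, had the highest mean, 379 FPKM, and was not called. The 5 called of 25 genes were near the 18.7% of all genes.

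Of the 18 tested genes of integrin adaptors and focal adhesions 1 was called, against 18.7% of all genes. This was Cd47, a surface partner of Itgav and Itgb3, at 23.8, 12.8 and 19.1 FPKM at 4.5DDC, 47.4, 31.3 and 30.7 at 5.5DDC and 75.9, 48.2 and 40.2 at 6.5DDC. It rose by 1.55 ± 0.28 on the log2 scale (adjusted p = 0.00634), with the 3 libraries of 6.5DDC above 4.5DDC. Ilk, a scaffold that binds the tail of Itgb1, had the highest mean, 131 FPKM, and was not called (0.34 ± 0.16, adjusted p = 0.168). The median log2 fold change of these 18 genes was −0.29, below 0, while that of the tested members was 0.67. Of 16 tested matrix proteases and inhibitors 1 rose and 1 fell, against 9.21% and 9.53% of all genes. Adam10, which sheds surface proteins, rose (0.70 ± 0.14, adjusted p = 0.0114). Mmp17, a membrane-bound metalloprotease, fell (−1.11 ± 0.32, adjusted p = 0.0383). Plat, the tissue plasminogen activator, had the highest mean, 111 FPKM. It was not called (0.56 ± 0.26, adjusted p = 0.152).

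Other receptors of the same ligands gave 3 rises and 1 fall among 14 tested, against 9.21% and 9.53% of all genes. Sgcd and Sgcb, sarcoglycans of the dystroglycan complex that binds laminin, rose by 2.80 ± 0.47 and 0.54 ± 0.13 on the log2 scale (adjusted p = 0.00510 and 0.0215). Among the syndecans, heparan sulfate receptors, Sdc2 rose (0.77 ± 0.22, adjusted p = 0.0359) and Sdc1 went from 34.9, 53.6 and 30.9 to 12.4, 9.94 and 12.7 FPKM and fell (−1.78 ± 0.22, adjusted p = 0.00151). Rpsa, a ribosomal protein also known as a laminin receptor, had the highest mean FPKM, 141, from only 1143 counts. The cause of this mismatch was not tested, and its value is uncertain.

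The neural progenitor markers differed widely in level. Sox2, a transcription factor of these cells, was at 88.0, 78.2 and 80.1 FPKM at 4.5DDC, 89.1, 84.8 and 82.0 at 5.5DDC and 84.9, 96.0 and 82.0 at 6.5DDC and was not called. Summed FPKM of the 9 progenitor markers was 2236, 2601 and 2133 at 4.5DDC, 3105, 2777 and 3027 at 5.5DDC and 3026, 2914 and 3065 at 6.5DDC, with Vim, an intermediate filament protein, making up most of it. Nkx2-2, a transcription factor of ventral progenitors, was at 7.87, 14.2 and 11.1 FPKM at 4.5DDC, 10.2, 17.2 and 17.9 at 5.5DDC and 7.28, 12.5 and 18.8 at 6.5DDC and was not called, and Sox3 was between 1.44 and 3.59 FPKM at 6.5DDC. Prom1, the antigen of the sort, went from 89.3, 62.8 and 85.2 to 207, 187 and 154 FPKM and rose (1.19 ± 0.18 on the log2 scale, adjusted p = 0.00363), while Sox3 and Nkx6-1, transcription factors of early and ventral progenitors, fell (−1.80 ± 0.49 and −1.14 ± 0.28, adjusted p = 0.0330 and 0.0220). The summed FPKM of the floor plate markers was 893, 582 and 584 at 4.5DDC, 1648, 1131 and 1139.7 at 5.5DDC and 1344, 1307 and 1432 at 6.5DDC, with Ntn1, a guidance cue for axons, as the most abundant. Ferd3l, Spon1, Shh and Ntn1 rose by 1.92, 1.54, 0.79 and 0.65 on the log2 scale. The part of floor plate cells, neurons and vessels in the changes of the members was not tested.

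Of the endothelial markers 1 of 4 tested, Kdr, a receptor for VEGF, rose (1.76 ± 0.37, adjusted p = 0.0121), against 9.21% of all genes. The other 3 were not called, and Tie1 and Emcn had 7 and 6 counts over the 9 libraries. The summed FPKM of the 6 genes was 1.24, 3.92 and 4.07 at 4.5DDC, 1.59, 5.90 and 5.28 at 5.5DDC and 8.71, 6.13 and 5.30 at 6.5DDC, with Cdh5, a junction protein of vessels, as the most abundant and with low values in replicate 1 at 4.5DDC and 5.5DDC. Pluripotency markers summed to between 0.393 and 2.28 FPKM in a library, with Dppa5a as the most abundant, and the 1 tested gene had an unadjusted p over 0.05. Pou5f1, the defining factor of that list, had 4 counts in all.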

How the data were processed

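Polyadenylated RNA of 9 libraries (3 time points, 3 libraries each) was sequenced by the authors as single-end reads of 50 bases. Per the authors' processing notes, reads were converted with bcl2fastq 1.8.3, aligned to GRCm38 with TopHat 2.0.4 and counted with HTSeq 0.6.1, and FPKM came from Cufflinks 2.1.1; the annotation release and the strand setting are not given. The deposited count table was read as a table of expected counts, because values of 98 symbols, 0 of them members, were not whole, and was rounded. The deposited FPKM table gave the levels. Both hold 38197 symbols. Changes were computed from the counts in R 4.3.3 with edgeR 4.0.16: TMM factors (0.951 to 1.04), filterByExpr by time point (14742 genes), common dispersion 0.0733, quasi-likelihood F test with 6 residual degrees of freedom, Benjamini-Hochberg over all genes, threshold 0.05. Comparisons were 4.5DDC to 6.5DDC, 4.5DDC to 5.5DDC and 5.5DDC to 6.5DDC. Alternatives were library totals, DESeq2 1.42.0 size factors and test, 2 other filters, limma 3.58.1 voom, limma on log-scaled FPKM (pseudocount 1 or 0.1), the 6 compared libraries alone, a block for the replicate number, each library left out and, chosen after seeing the data, no replicate 1. Where libraries are ordered as highest, lowest or apart over many genes, the order is in TMM-scaled log2 CPM (prior count 2), which can differ from the order in FPKM. Promoter windows came from RefSeq on GRCm38.p6 and exon positions from GENCODE M21; tables and plots used Python 3.11.15, pandas 2.3.3, numpy 2.4.6 and matplotlib 3.10.9. A count of 0 allows 3 counts in a library.

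Members and lists were chosen with earlier results of these data known. Named members were taken from the called ones (up to 20 by absolute log2 fold change), members called in a shorter interval, the 3 of highest mean FPKM in each group of chains, symbols that encode no such chain, members called between replicate numbers (a test not used, because same-number libraries did not all pair), and the genes of each partner list with the largest called changes (up to 4) and the highest mean; others were chosen after their values were seen. The lists of partners were for basement membrane partners, collagen processing, adaptors, proteases and other receptors, and the marker lists for neural progenitors, neurons, floor plate, neural crest and mesenchyme, endoderm, endothelium, leukocytes and pluripotent cells.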

Additional observations from a re-analysis of the deposited data

How the results depend on the processing

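From 4.5DDC to 6.5DDC the number of called members was between 11 and 19 in 9 of the 10 alternatives that kept all libraries or the 6 compared ones, against 14 as reported, where 11.2% to 24.9% of all genes were called. With the replicate block it was 23 (21 higher and 2 lower), or 37.1% against 23.2% of all genes, with all 14 among them. Leaving out 1 library gave 5 to 21 (7.56% to 20.9% of all genes), and leaving out the 3 libraries of replicate 1, chosen after seeing the data, gave 34 (31 higher and 3 lower), or 53.1% against 31.3%. The cause was not tested.

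From 4.5DDC to 5.5DDC, where 0 members were called, DESeq2 gave 1, the replicate block 2, leaving out 1 library 0 to 1 and leaving out replicate 1 gave 3 (Col4a5, Col6a3 and Col8a2), or 4.69% of members against 3.31% of all genes. From 5.5DDC to 6.5DDC, also 0, no filter on low counts gave 1 (Col2a1), DESeq2 2, the replicate block 2, leaving out 1 library 0 to 2 and leaving out replicate 1 gave 5 (Col12a1, Col14a1, Col4a5, Col6a6 and Lama3), or 7.81% against 4.97%. The cause was not tested.

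The replicate block was fitted over all 9 libraries. Libraries of the same number were taken as paired where every such correlation was over 0.1. By that rule they paired between 4.5DDC and 5.5DDC and between 5.5DDC and 6.5DDC. They did not pair between 4.5DDC and 6.5DDC, where replicates 2 and 3 had correlations of −0.040 and −0.215. The counts of 23, 2 and 2 from the block are thus given as an alternative only. For the same reason the test between replicate numbers was not used, and its alternatives have no values. From 4.5DDC to 6.5DDC replicate 1 had a correlation of 0.383 with its own number. Over that span replicate 2 with 3 had 0.460 and replicate 3 with 2 had 0.487. From 5.5DDC to 6.5DDC replicate 3 had 0.197 with its own number and 0.405 with replicate 2. Between 4.5DDC and 5.5DDC replicates 2 and 3 had 0.386 and 0.452 with their own number, and 0.291 and 0.390 with each other.

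Over the 33 named members, 580 values under an alternative kept direction and side of the threshold, 48 kept direction and lost the call, 13 kept direction and gained one, and 15 turned direction, all 15 in members that were not called. Without 4.5DDC replicate 3, Col22a1, Col4a1 and Col4a2 turned to −0.0023, −0.11 and −0.07. Without 6.5DDC replicate 1, Col4a1, Col4a2 and Lama1 turned to −0.45, −0.27 and −0.66. Without 4.5DDC replicate 1, Col5a1 and Lamb2 turned to 0.37 and 0.19, and without 6.5DDC replicate 2 Lamb2 was 0.02. Over all single libraries left out, the range was −0.0023 to 0.74 for Col22a1, −0.45 to 0.45 for Col4a1, −0.27 to 0.49 for Col4a2, −0.71 to 0.37 for Col5a1, −0.66 to 1.04 for Lama1 and −0.53 to 0.19 for Lamb2. Without all of replicate 1, Col4a1, Col5a1, Lama1 and Lamb2 were −0.28, 0.16, −0.49 and 0.23. With limma on log2 FPKM, Col22a1 was −0.19 and −0.18 at pseudocounts of 1 and 0.1. The cause was not tested.

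No scaling moved the median log2 fold change of all genes by more than 0.1. With 3 libraries per time point, and with replicates whose independence the labels do not state, a missing call does not show that a level stayed the same. The 24 members that were not tested had 0 to 93 counts each over the 9 libraries. Where 1 library is left out, its time point keeps 2, and the spread is pooled over the time points. Symbols that share exons with another annotated gene have uncertain levels, and since the strand setting is not given, it is not known whether reads from the other strand are counted where genes overlap. RNA was measured, not protein or the matrix itself.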
